A study of Xenopus laevis with 24 samples.

Results

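*Xenopus laevis*, the African clawed frog, arose by hybridization of related ancestral species and carries many genes as a pair of copies (homeologs), 1 on the L and 1 on the S subgenome. Over time the copies of a pair can keep the same pattern or divide it between them, or 1 copy can be lost. The 106 pairs described here are those in which 1 copy rose and the other fell between early and late explants of the dorsal marginal zone (DMZ), out of 5055 pairs in which each name with an L or S ending occurs once (2.1%, 212 of 31694 gene models). The measure was the log2 of mean CPM (counts of the gene per 1 M counts of the library) plus 1, at stages 17 and 18 minus that at stages 11 and 11.5, with 4 libraries on each side. A pair was kept if 1 copy changed by at least +0.7 and the other by −0.7 or less. The pairs were thus chosen by their values in those 8 libraries, and these values are given as a description. In what follows the rising copy and the falling copy of a pair are named by these 2 differences.

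The DMZ is a band of tissue on the dorsal side of the gastrula that holds the Spemann organizer and gives rise to axial tissues. DMZ explants were cut at stage 10.5, kept at 16 °C and collected, 5 or 6 per library, at 10 stages from 11 (mid gastrula) to 18 (neurula), read from intact sibling embryos. Ventral marginal zone explants (VMZ, 5 per library, cut at stage 10.5) and animal caps (prospective ectoderm, 20 per library, cut at stage 8) were collected at stage 11. Each of the 12 groups had 2 libraries, each a pool of explants, and the labels number them without saying that they came from separate clutches. The p-values below then measure only the spread between these samples, which may be technical.

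Total counts ran from 21.9 to 39.8 M, except in 2 shallower libraries, replicate 2 of DMZ stage 11 (7.38 M) and replicate 1 of stage 17 (14.6 M). Both of these took part in choosing the pairs. The summed dorsal markers were highest in the DMZ, at 869 to 2061 CPM in the DMZ libraries, 176 to 218 CPM in the VMZ and 56.1 to 98.8 CPM in the caps. The summed ventral markers were at 184 to 547 CPM in the DMZ, 866 to 1300 CPM in the VMZ and 1544 to 1609 CPM in the caps, so they did not single out the VMZ. The summed endodermal markers differed between the 2 VMZ libraries, at 163 and 493 CPM. They were at 141 and 241 CPM in the caps and at 873 and 925 CPM in DMZ stage 11. None of the 18 dorsal, 15 ventral, 16 ectodermal and 12 endodermal marker models was at 0 throughout any group. The summed ectodermal markers stood at 1086 to 2781 CPM in DMZ stage 11 and at 8298 to 8488 CPM in DMZ stage 18, so they stood higher at the later of the stages that define the pairs, and their part in the results by stage was not tested. In bulk samples like these, fewer cells of a type and less RNA per cell cannot be told apart.

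Opposite movement was the least frequent of the patterns. Among the 5055 pairs, both copies stayed within 0.7 of 0 in 2016, only 1 copy rose in 1043, only 1 fell in 793, both rose in 656 and both fell in 441. The rising copy was L in 54 of the 106 opposite pairs (50.9%) and S in 52, and over all pairs the L copy had the larger change in 51.5%. The median change was 1.11 for the rising copies and −1.12 for the falling ones on the log2(CPM + 1) scale, which understates the change of copies at low levels. The largest rise was that of *pkp3.S* (3.03) and the largest fall that of *p2ry2.L* (−4.22). At the edge of the rule, *pnhd* (L 1.19, S −0.70) and *sncb* (L −0.70, S 0.71) were just inside, and *entpd2* (L 0.70, S −1.33), *uap1* and *npr1* were just outside. In *pnhd*, the early and late libraries of each copy overlapped. *pnhd.S* had 97 and 67 counts at stage 11, 164 and 888 at stage 11.5, 182 and 181 at stage 17 and 269 and 120 at stage 18 (replicate 1, then 2). Its early mean thus leaned on 1 library, stage 11.5 replicate 2.

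**Figure D1:**
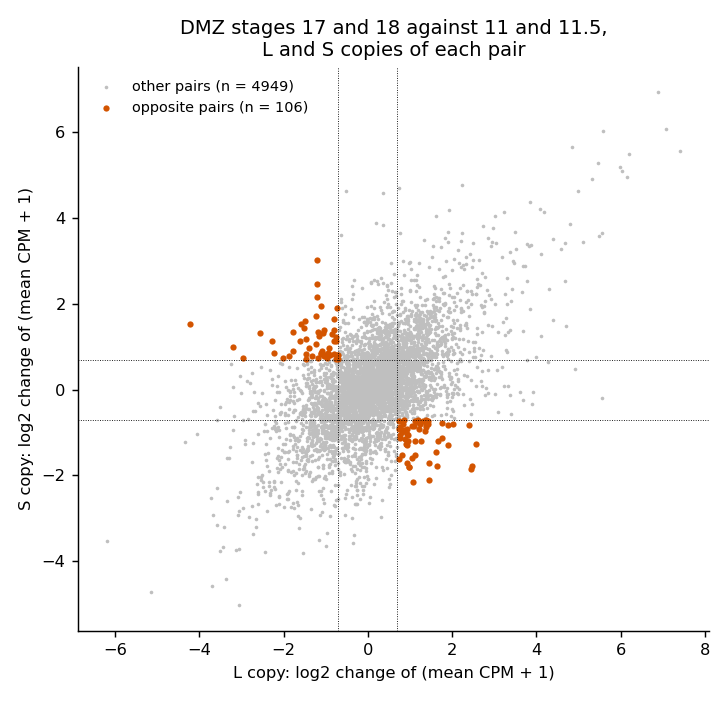
Change of the L copy (x axis) and of the S copy (y axis) in DMZ explants, as log2 of mean CPM plus 1 at stages 17 and 18 minus that at stages 11 and 11.5, 1 point per pair. The 106 opposite pairs (orange) fill the upper left and lower right corners beyond the dotted lines at 0.7 and −0.7, and most of the other pairs (grey) lie near the centre or along the diagonal.

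In a typical opposite pair the copies exchanged places. The median level of the rising copies went from 5.38 to 15.1 CPM and that of the falling copies from 11.1 to 3.97 CPM. The falling copy held more of the pair's counts at the early stages in 88 of 106 pairs, and the rising copy held more at the late stages in 86. The copy with more counts changed in 68 pairs, the rising copy was the larger at both ends in 18, and the falling copy in 20. The summed level of the pair stayed within 0.7 of its early value in 72 pairs, rose in 16 and fell in 18. At the 4 late libraries, 97 of 106 rising copies lay above every early library and 80 of 106 falling copies lay below every early library, where 26.0% and 19.8% of all gene models did so. Both held in 73 pairs, so in the other 33 the early and late libraries of at least 1 copy overlapped. The same 8 libraries chose the pairs, so shares above those of all gene models are largely given by the choice. Counts were not divided by transcript length, so a share of counts is not a share of molecules.

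The share of the pair's counts that came from the rising copy climbed through the DMZ series. Its median over the 106 pairs was 21.2% and 20.4% in the stage 11 libraries (replicate 1, then 2), 32.7% and 23.6% at stage 11.5, and 38.1% and 30.4% at stage 12. It was 48.8% and 36.6% at stage 12.5, 50.2% and 47.1% at stage 13, and 61.1% and 53.7% at stage 14. It was 60.1% and 62.1% at stage 15, 67.9% and 60.9% at stage 16, 69.4% and 68.7% at stage 17, and 70.1% and 70.6% at stage 18. Replicate 1 was ahead of replicate 2 at each stage from 11 to 14. At stage 11 the other tissues had medians near that of the DMZ, 23.2% and 21.4% in the VMZ and 22.8% and 20.0% in the caps at stage 11.

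**Figure D2:**
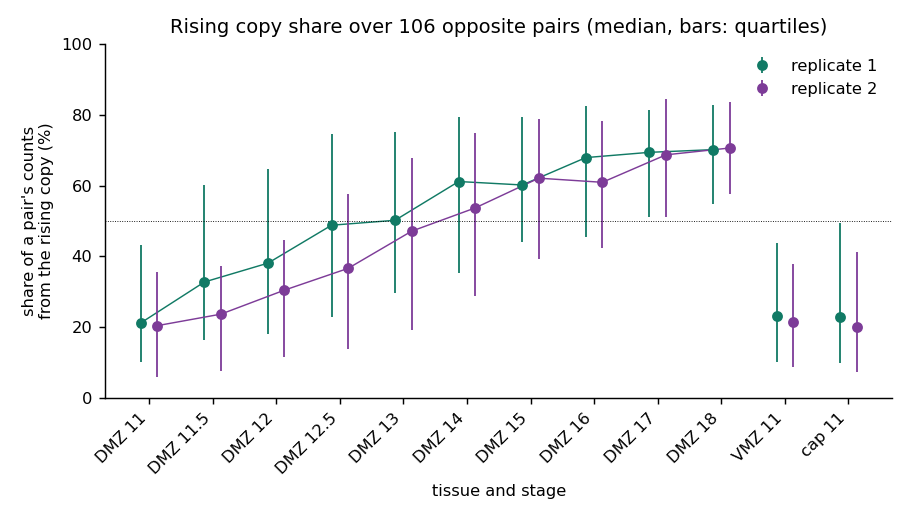
Share of each pair's counts that came from the rising copy (y axis, percent), as the median over the 106 pairs with bars from the lower to the upper quartile, for each library by tissue and stage (x axis, replicate 1 green, replicate 2 purple). The medians climb from 21.2% and 20.4% at DMZ stage 11 to 70.1% and 70.6% at stage 18, and the VMZ and cap libraries sit at the level of DMZ stage 11.

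The exchange had no single stage. With the replicates averaged, the rising copy held over 50% at every stage in 18 pairs and was still under 50% at stage 18 in 20 pairs. In the remaining 68, the stage from which it stayed over 50% was 11.5 in 5 pairs, 12 in 9, 12.5 in 12, 13 in 6, 14 in 11, 15 in 5, 16 in 2, 17 in 11 and 18 in 7. *kit* crossed at stage 13, *p2ry2* at stage 15, *amfr* at stage 16 and *tcea3* at stage 18.

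The stages from 12 to 16 took no part in choosing the pairs, and they show how the copies moved in other libraries of the same time course. The log2 ratio of rising to falling copy was compared between stages 15 and 16 and stages 12 and 12.5 (4 libraries on each side) with limma, fitted to all 5023 pairs that passed the count filter, with Benjamini-Hochberg adjustment. The ratio moved toward the rising copy at an adjusted p under 0.05 in 68 of the 106 pairs (64.2%), while 13.2% of all pairs were called toward their copy of larger change. None of the 106 was called toward the falling copy (0.0796% of all pairs were called toward their copy of smaller change) by limma or by edgeR's interaction test, and none reached an unadjusted p under 0.05 in that direction. With the replicate number as a block, 91 were called toward the rising copy and 0 toward the falling copy, where 26.3% and 0.279% of all pairs were called in these directions and 26.6% in either. The median change of the ratio was 1.54 on the log2 scale over the opposite pairs and 0.31 over all pairs. The change was above 0 in 106 of 106 opposite pairs. Taken toward the copy of larger change, it was above 0 in most pairs of every other pattern. That share ran from 76.5% where both copies rose to 93.2% where only 1 fell. Because these stages lie between those that chose the pairs, the direction and much of the size of the change are given by the choice. The share called among the opposite pairs is thus not separate evidence of their movement. Pairs in which only 1 copy had passed 0.7 were called less often, 225 of 1035 (21.7%) where 1 copy rose and 201 of 790 (25.4%) where 1 copy fell. The rule asked more of an opposite pair, with both copies past 0.7 in opposite directions. Fewer calls in the other classes are thus largely given by the choice too. The difference between these classes was not tested.

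The number called depended on single libraries: it was 40 without DMZ stage 12.5 replicate 2 (5.46% of all pairs), 41 without stage 12 replicate 2 (6.1%) and 45 without stage 16 replicate 1 (6.87%). In 77 of 106 pairs (72.6%) the ratio was higher in all 4 later than in all 4 earlier libraries, where 22.5% of all pairs did so. That excess too is largely given by the choice of the pairs.

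**Figure D3:**
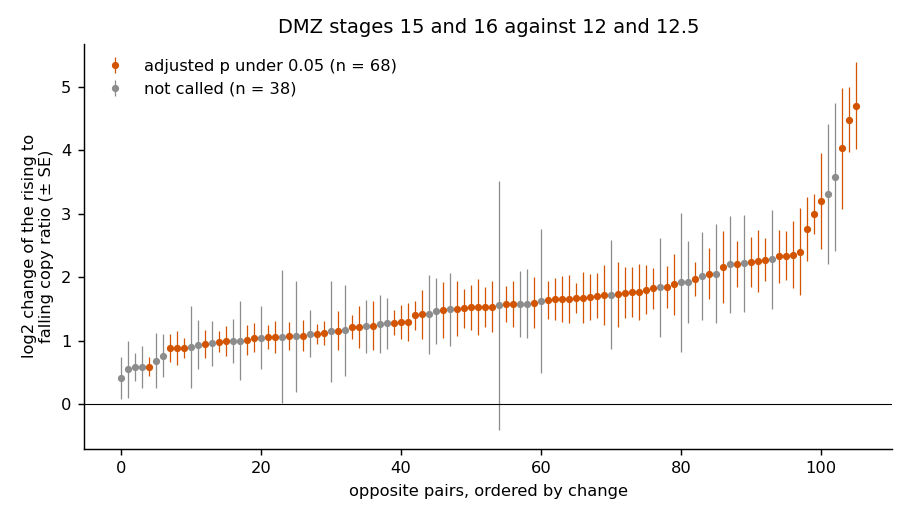
Change of the log2 ratio of rising to falling copy in DMZ stages 15 and 16 against 12 and 12.5 (y axis, limma estimate with its standard error) for the 106 opposite pairs in order of size (x axis). All 106 points are above 0, the 68 called pairs are in orange, and *cnfn.1* and *p2ry2* are at the upper end with 4.70 and 4.48.

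Single copies were tested by another method and over all gene models, so the numbers called are not set against those of the ratio. In edgeR's quasi-likelihood test of the same stages, 38 of the 106 rising copies were higher (35.8%, against 8.26% of all gene models) and 49 of the 106 falling copies were lower (46.2%, against 9.27%). No rising copy was lower and no falling copy was higher at an adjusted p under 0.05 in edgeR or DESeq2, nor at an unadjusted p under 0.05 in edgeR. Both copies were called, in opposite directions, in 17 pairs, while 0.458% of all 5023 pairs were so called: *amfr*, *apba1*, *cnfn.1*, *col4a5*, *galnt7*, *golga1*, *mfsd11*, *mrpl36*, *p2ry2*, *pkp3*, *prdx4*, *ptpn1*, *rnaseh1*, *slc2a2*, *spdl1*, *tcea3* and *vps35*. These 17 names were chosen after their values were seen. All these copies were chosen for such changes over the same time course. Shares above those of all models or pairs, and the lack of calls the other way, are thus largely given by the choice. A further 21 pairs had only the rising copy called, 32 only the falling copy, and 36 neither. With the replicate number as a block, the counts were 64 rising copies (14.4% of all models higher), 74 falling copies (15.5% lower) and 42 pairs with both (1.53%).

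These counts also rested on single libraries. Without DMZ stage 12.5 replicate 2, 17 rising copies, 22 falling copies and 1 pair with both were called, where 3.61% of all models were higher, 4.47% lower and 0.0198% of all pairs called oppositely. Without stage 12 replicate 2 they were 23, 22 and 2 (4.16%, 4.64% and 0.0396%). Without stage 15 replicate 1 they were 22, 29 and 3 (4.73%, 5.83% and 0.0594%), and without stage 16 replicate 1 they were 23, 29 and 5 (4.61%, 5.57% and 0.099%). Leaving out stage 15 replicate 2 or stage 16 replicate 2 left 9 pairs with both (0.198% and 0.178% of all pairs).

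The pairs covered many roles, and they are taken here by class. The classes were drawn up with the values known, so their counts describe the pairs and no more. Over all 106 opposite pairs, 64.2% were called by ratio and the rising copy was L in 50.9%, and most classes are small. Of all pairs, 13.2% were called toward their copy of larger change. Receptors, ligands and signalling proteins were the most numerous, with 23 pairs, of which 15 were called by ratio, and the rising copy was L in 13 and S in 10.

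*p2ry2* encodes a G-protein-coupled receptor for extracellular ATP and UTP. Its L copy (gene3325 in the count table) had 45.5 ± 21.4 CPM (SD, n = 4) at stages 11 and 11.5 and 1.51 ± 1.04 CPM at stages 17 and 18, while the S copy (gene362) went from 2.03 ± 0.523 to 7.81 ± 2.23 CPM. In the libraries that did not choose it, *p2ry2.L* read 20.7, 29.0, 10.2 and 24.1 CPM at stages 12 and 12.5 and 4.11, 3.5, 2.05 and 2.36 CPM at stages 15 and 16. *p2ry2.S* read 2.58, 3.31, 2.19 and 3.84 CPM and then 12.9, 6.84, 11.7 and 8.59 CPM. Neither copy's early and late libraries overlapped. The S copy rose by 1.71 ± 0.32 (log2, SE; edgeR adjusted p = 0.00213), the L copy fell by 2.87 ± 0.41 (0.000349), and the ratio moved by 4.48 ± 0.51 (limma adjusted p = 0.000285). The S copy's share went from a mean of 3.0% at stage 11 to 85.0% at stage 18.

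*kit*, the receptor tyrosine kinase for stem cell factor, also turned from L to S. *kit.L* (gene9615) read 22.5, 28.3, 14.1 and 27.9 CPM at stages 12 and 12.5 and 7.56, 17.5, 5.11 and 11.5 CPM at stages 15 and 16, a fall of 1.22 ± 0.34 (edgeR adjusted p = 0.023). *kit.S* (gene18517) read 21.0, 10, 15.1 and 20.4 CPM and then 10.6, 32.0, 18.1 and 16.7 CPM, so its early and late libraries overlapped (log2 difference 0.17 ± 0.42, adjusted p = 0.831). It had been at 3.78 and 5.69 CPM at stage 11. The ratio moved by 1.41 ± 0.38 (limma adjusted p = 0.0243), a call lost without DMZ stage 12 replicate 2 (0.126), 12.5 replicate 2 (0.106), 15 replicate 1 (0.0539), 15 replicate 2 (0.0786) or 16 replicate 1 (0.117).

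*notum* and *stat5b* were chosen after their values were seen. *notum* encodes a secreted enzyme that inactivates Wnt proteins by removing their lipid. *notum.L* read 21.6, 23.7, 14.0 and 18.2 CPM at stages 12 and 12.5 and 9.14, 6.41, 8.83 and 6.98 CPM at stages 15 and 16, with no overlap, and fell by 1.32 ± 0.16 (edgeR adjusted p = 0.000156). *notum.S* differed by 0.36 ± 0.33 (adjusted p = 0.505) and was at 17.7, 13.6, 18.8 and 15.3 CPM and then 19.1, 19.6, 28.9 and 18.8 CPM. *stat5b* encodes a transcription factor activated by cytokine receptors, and its S copy fell by 1.18 ± 0.23 (adjusted p = 0.0025) from 1.16 to 2.23 CPM down to 0.477 to 0.868 CPM. The L copy held most of the pair's counts, with a mean share of 91.2% at stage 12 and 96.1% at stage 16. Its libraries at stages 17 and 18 overlapped those at stages 11 and 11.5.

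*gng7*, a G-protein gamma subunit, shows a pair in which the rising copy dominated at every stage. *gng7.L* read 79.7, 48.3, 98.7 and 66.3 CPM at stages 12 and 12.5 and 108, 114, 111 and 107 CPM at stages 15 and 16. *gng7.S* read 2.69, 1.31, 2.15 and 1.5 CPM and then 1.16, 0.826, 0.713 and 0.376 CPM, a fall of 1.40 ± 0.41 (edgeR adjusted p = 0.0267). The L copy was above all its earlier libraries, but its difference of 0.56 ± 0.27 did not pass the test (adjusted p = 0.165, and 0.0192 with the replicate block). The ratio moved by 1.98 ± 0.27 (limma adjusted p = 0.000635) although the L share only went from 87.2% to 99.5% between stages 11 and 18. *ncald*, the calcium sensor neurocalcin delta, had a ratio change of 1.11 ± 0.16 (adjusted p = 0.000789), with *ncald.S* falling by 0.74 ± 0.12 (0.000868).

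Ratio changes of other signalling pairs were less certain. *camk2d*, a subunit of the calcium- and calmodulin-dependent kinase II, had a ratio change of 2.02 ± 0.69 (limma adjusted p = 0.0676, not called, but 0.0266 with the block, 0.0308 by edgeR's interaction test, 0.0195 in a fit of only the groups compared and 0.0358 with a prior of 2), and *camk2d.S* fell by 1.11 ± 0.21 (edgeR adjusted p = 0.00213). *ralgps2*, an exchange factor for Ral GTPases, moved by 2.36 ± 0.53 (0.0102), a call lost without DMZ stage 12.5 replicate 2 (0.0587) or 12 replicate 2 (0.0548). *sphk2*, a sphingosine kinase (0.89 ± 0.26, adjusted p = 0.0369), and *pnhd*, the secreted protein Pinhead (1.49 ± 0.44, adjusted p = 0.0373), each lost the call in 6 of the 8 fits without 1 of these libraries, at adjusted p of up to 0.178 and 0.161. *sphk2* kept it only without replicate 1 of stage 12 or 12.5, and *pnhd* only without stage 12.5 replicate 1 or 15 replicate 2. *cib1*, a calcium-binding protein that binds integrin tails, was not called (1.58 ± 0.52, adjusted p = 0.0576), except with the block (0.00462), by edgeR's interaction test (0.0492), or without DMZ stage 12.5 replicate 1 (0.0357) or stage 12 replicate 1 (0.0429).

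Of the 11 pairs of adhesion, matrix and cytoskeletal proteins, 10 were called by ratio. *pkp3* encodes plakophilin 3, a plaque protein of desmosomes. *pkp3.S* (gene15795) rose from 18.3, 8.61, 17.3 and 12.0 CPM at stages 12 and 12.5 to 37.8, 31.3, 51.5 and 26.2 CPM at stages 15 and 16 (1.35 ± 0.32, edgeR adjusted p = 0.00843). *pkp3.L* (gene12399) fell from 66.4, 91.3, 56.0 and 72.4 CPM to 40.7, 45.4, 38.6 and 36.2 CPM (−0.86 ± 0.15, adjusted p = 0.00143). Neither copy's libraries overlapped, and the S share rose from 5.7% at stage 11 to 65.2% at stage 18.

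*col4a5* encodes a chain of type IV collagen, the network collagen of basement membranes. *col4a5.L* (gene11075) read 4.62, 5.08, 5.35 and 5.34 CPM at stages 12 and 12.5 and 8.07, 5.71, 21.5 and 7.46 CPM at stages 15 and 16 (0.94 ± 0.27, edgeR adjusted p = 0.0272), with stage 16 replicate 1 well above the rest. It then reached 54.4 and 33.7 CPM at stage 18. *col4a5.S* (gene11197) fell from 2.20, 4.84, 0.914 and 2.72 CPM to 0.208, 0.694, 0.310 and 0.787 CPM (−2.39 ± 0.58, adjusted p = 0.0101). The ratio moved by 3.21 ± 0.76 (limma adjusted p = 0.0127), a call lost without DMZ stage 12 replicate 2 (0.0562), 12.5 replicate 2 (0.0682), 15 replicate 1 (0.0619) or 16 replicate 1 (0.0653).

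*adam17*, a membrane metalloprotease that sheds receptors and ligands, read 18.7, 14.6, 21.2 and 13.5 CPM for its L copy and then 30.6, 23.0, 35.4 and 26.3 CPM, a rise of 0.73 ± 0.20 (edgeR adjusted p = 0.0223). Its S copy differed by −0.46 ± 0.16 (adjusted p = 0.0554, and 0.0146 with the block), and the ratio moved by 1.21 ± 0.19 (limma adjusted p = 0.00124). *baiap2l1*, which links the plasma membrane to actin, moved by 1.28 ± 0.20 (0.00119). *cnfn.1*, a cornifelin gene (in humans a protein of the cornified cell envelope), had the largest ratio change of the 106, 4.70 ± 0.68 (0.000845), at low levels. Its S copy read 0.242, 0.164, 0.0457 and 0.305 CPM and then 1.16, 1.16, 1.12 and 1.03 CPM. Among pairs chosen after their values were seen, the microtubule regulator *stmn1* (1.29 ± 0.27, adjusted p = 0.00658), the dynactin subunit *dctn1* (1.51 ± 0.31, adjusted p = 0.0064) and the actin nucleation promoter *wasl* (0.96 ± 0.22, adjusted p = 0.0116) all had S as the rising copy.

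**Figure D4:**
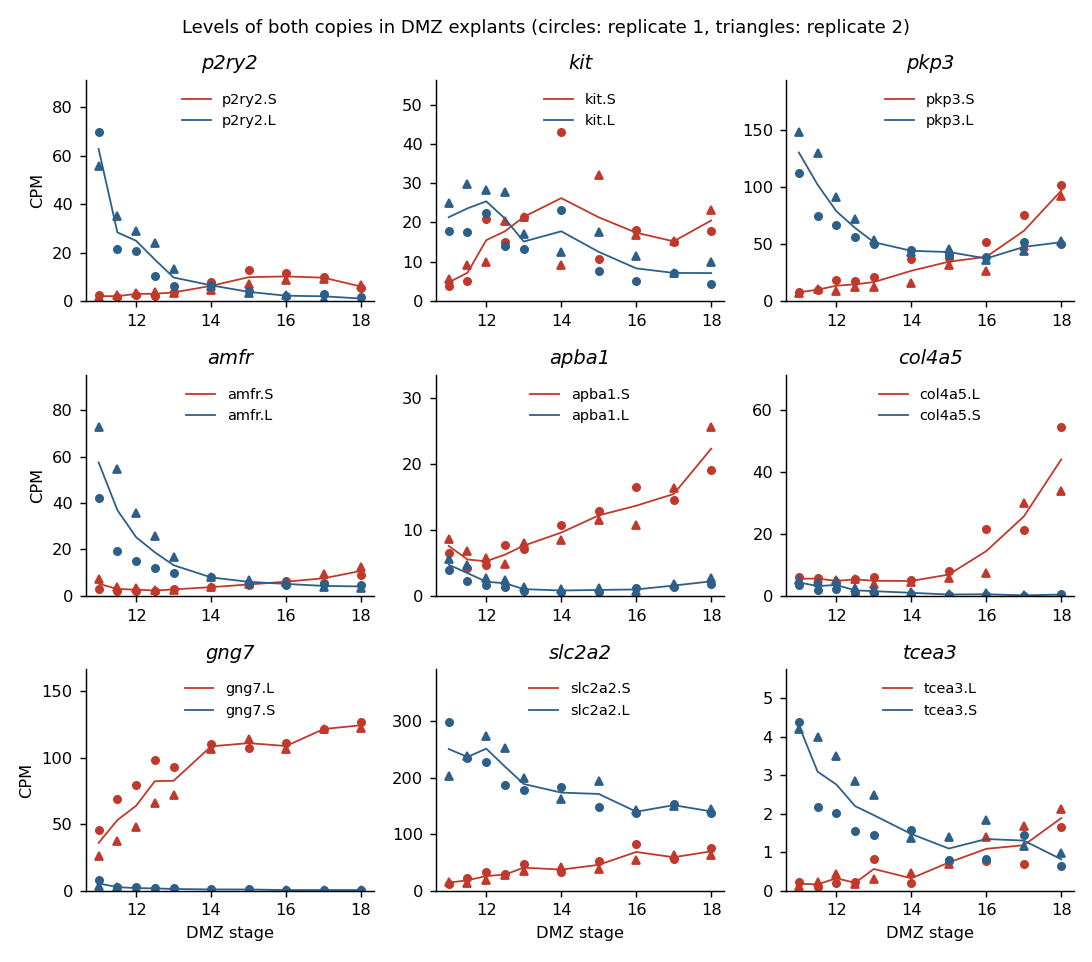
CPM (y axis) of the rising copy (red) and the falling copy (blue) over DMZ stage (x axis) in 9 pairs, with circles for replicate 1, triangles for replicate 2 and lines through the means of the 2 libraries. The lines cross in *p2ry2*, *kit*, *pkp3*, *amfr* and *tcea3*. The line of the rising copy lies above throughout in *apba1*, *col4a5* and *gng7*, although *col4a5.S* had 38 counts and *col4a5.L* 37 in stage 11 replicate 2. In *slc2a2* the rising copy stays below, at 75.9 and 63.6 CPM against 137 and 144 CPM at stage 18.

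Membrane transport proteins made up 14 pairs, 10 of them called by ratio. *slc2a2* encodes the glucose transporter GLUT2. *slc2a2.S* (gene9524) rose from 33.8, 18.4, 30.2 and 27.2 CPM at stages 12 and 12.5 to 52.6, 39.2, 83.3 and 54.1 CPM at stages 15 and 16 (1.00 ± 0.27, edgeR adjusted p = 0.0185). *slc2a2.L* (gene16187) fell from 228, 274, 187 and 252 CPM to 148, 194, 137 and 143 CPM (−0.64 ± 0.18, adjusted p = 0.0206), with 1 later library above the lowest earlier one. L stayed the larger copy, and the S share was 33.2% at stage 18.

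The nucleoside transporter *slc29a1* moved by 1.81 ± 0.38 (limma adjusted p = 0.00754) with *slc29a1.S* rising by 1.38 ± 0.22 (edgeR adjusted p = 0.000866). The lysosomal peptide transporter *slc15a4* (1.00 ± 0.23, adjusted p = 0.0127) and the proton pump accessory subunit *atp6ap1.2* (1.52 ± 0.36, 0.0127) both had L as the rising copy. Of these, *slc15a4* lost the call without DMZ stage 12 replicate 2 (0.0522) or 16 replicate 1 (0.0555). The inositol transporter *slc2a13* (1.27 ± 0.40, adjusted p = 0.0501, but 0.0297 with the block, 0.0345 for a slope over the stages, 0.0436 with the stricter filter and 0.0137 without DMZ stage 12 replicate 1) and the peroxisomal carrier *slc25a17* (0.585 ± 0.22, 0.0923, but 0.0039 with the block and 0.0287 in a fit of only the groups compared) were not called. *letm2*, of a family of mitochondrial inner membrane proteins, moved by 1.66 ± 0.33 (0.00582).

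The 8 pairs of membrane traffic and synaptic proteins included 4 called by ratio. *apba1*, a neuronal adaptor that binds the amyloid precursor protein, had an S copy at 4.73, 5.76, 7.73 and 4.79 CPM at stages 12 and 12.5 and at 12.9, 11.5, 16.6 and 10.8 CPM at stages 15 and 16 (1.14 ± 0.20, edgeR adjusted p = 0.00143). Its L copy read 1.61, 2.68, 1.37 and 2.47 CPM and then 0.596, 1.22, 1.21 and 0.753 CPM (−1.15 ± 0.34, adjusted p = 0.0297). Neither overlapped, and the ratio moved by 2.28 ± 0.34 (limma adjusted p = 0.00101). In *fam109b* the falling L copy remained far larger, 56.4 CPM early and 18.1 CPM late against 0.469 and 3.21 CPM for S, with a ratio change of 2.34 ± 0.38 (0.00162). *vps35*, a subunit of the retromer that returns cargo from endosomes, was chosen after its values were seen and had a small but precise change, 0.98 ± 0.16 (0.00178), with *vps35.L* rising by 0.45 ± 0.13 (edgeR adjusted p = 0.0255) and *vps35.S* falling by 0.55 ± 0.15 (0.0183). *sncb*, which encodes beta-synuclein, was low in its rising S copy (0.0249 CPM early, 0.676 CPM late) and was not called (2.29 ± 0.78, adjusted p = 0.0662), except with the block (0.0425) or without DMZ stage 12 replicate 2 (0.0173), 12.5 replicate 1 (0.019) or 16 replicate 2 (0.0366).

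Among 12 pairs of enzymes of glycans and lipids, the rising copy was L in 10 and S in 2, and 4 were called by ratio. *alg10*, which adds the final glucose to the lipid-linked oligosaccharide for N-glycosylation, moved by 1.40 ± 0.23 (limma adjusted p = 0.00177) and its S copy fell by 0.92 ± 0.18 (edgeR adjusted p = 0.00244). *galnt7*, which acts in O-glycosylation and was chosen after its values were seen, read 65.3, 39.9, 86.3 and 58.1 CPM and then 98.7, 97.9, 97.7 and 78.4 CPM for L, and 67.3, 85.8, 65.3 and 66.6 CPM and then 49.5, 62.0, 45.5 and 52.1 CPM for S. *galnt7.L* rose by 0.56 ± 0.16 (adjusted p = 0.0267) and *galnt7.S* fell by 0.48 ± 0.11 (0.00669). The sialyltransferase *st6gal1* moved by 1.69 ± 0.36 (limma adjusted p = 0.00756), while the lipase *liph* was not called (1.62 ± 1.13, adjusted p = 0.379).

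In 6 of the 7 pairs of the ubiquitin system the rising copy was S, and 4 were called by ratio. *amfr* encodes gp78, a ubiquitin ligase of the endoplasmic reticulum that marks misfolded proteins for degradation. *amfr.L* (gene19194) fell from 15.0, 35.6, 11.9 and 25.6 CPM at stages 12 and 12.5 to 5.30, 6.84, 4.53 and 5.82 CPM at stages 15 and 16 (−2.0 ± 0.35, edgeR adjusted p = 0.00129), and *amfr.S* (gene12556) rose from 2.07, 3.36, 2.1 and 2.53 CPM to 4.77, 5.09, 6.48 and 5.78 CPM (1.09 ± 0.30, adjusted p = 0.0192). Neither overlapped, the ratio moved by 3.00 ± 0.31 (limma adjusted p = 0.00024), and the pair's summed level fell by 1.86 on the log2(CPM + 1) scale. *ube2j1*, a ubiquitin-conjugating enzyme of the same degradation pathway, had a ratio change of 2.22 ± 0.76 (adjusted p = 0.0678, 0.00122 with the block, and 0.0222 without DMZ stage 12.5 replicate 1).

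Of the 6 pairs of mitochondrial and redox proteins 5 were called, and of the 9 of transcription, translation and nuclear proteins 7. *prdx4*, *rnaseh1* and *tcea3* were chosen after their values were seen. *prdx4*, a peroxiredoxin of the endoplasmic reticulum, read 5.1, 3.55, 6.36 and 3.33 CPM and then 11.7, 9.94, 11.1 and 12.9 CPM for L (1.29 ± 0.33, edgeR adjusted p = 0.0148), and 10.6, 14.8, 10 and 10.1 CPM and then 7.24, 5.71, 8.43 and 6.54 CPM for S (−0.73 ± 0.16, adjusted p = 0.00611), with no overlap in either copy. *rnaseh1*, which removes RNA from RNA and DNA hybrids, moved by 2.33 ± 0.42 (limma adjusted p = 0.00279), with its S copy falling by 1.69 ± 0.27 (edgeR adjusted p = 0.000725).

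*tcea3*, of the transcription elongation factor S-II family, changed at low levels: *tcea3.L* read 0.215, 0.437, 0.229 and 0.183 CPM and then 0.774, 0.694, 0.775 and 1.40 CPM, and the ratio moved by 2.77 ± 0.50 (limma adjusted p = 0.00302). The zinc finger gene *znf711* moved by 1.85 ± 0.34 (0.00302), *cnep1r1*, a nuclear envelope partner of a lipin phosphatase, by 1.68 ± 0.24 (0.000789), and *qrich1.2* by 2.16 ± 0.57 (0.0204). The *qrich1.2* call was lost in 5 of the 8 fits without 1 of these libraries, at adjusted p between 0.0508 and 0.114, and kept without stage 12 replicate 1, 12.5 replicate 1 or 16 replicate 2. Of the 16 pairs in no class, 9 were called. Among them *glipr2* moved by 1.72 ± 0.48 (0.0263), a call lost without stage 12 replicate 2 (0.126), 12.5 replicate 2 (0.136), 15 replicate 1 (0.0942) or 16 replicate 1 (0.108). *npdc1.1* moved by 0.89 (0.0182), lost without stage 12 replicate 1 (0.064), 12.5 replicate 2 (0.0887), 15 replicate 1 (0.0629) or 16 replicate 1 (0.0765), and *ccdc68* was not called (0.91 ± 0.65, adjusted p = 0.391).

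Lists of genes well known in these tissues were small and held no opposite pair. None was found among the 13 muscle, 13 neural, 7 notochord, 7 maternal, 15 cell cycle and 7 keratin pairs, or among 38 pairs of ribosomal proteins, of which 34 had both copies rising. Both copies rose in 8 of the 13 muscle and in 8 of the 13 neural pairs. Nor was an opposite pair found among 7 histone, 24 proteasome, 13 kinesin and 10 tubulin pairs. With 2.1% of all pairs opposite, a list of such a size without any is near the share over all pairs. Opposite pairs made up 5 of 109 solute carrier pairs (4.59%), 3 of 59 pairs of potassium channels, ABC transporters and ATPases (5.08%), 1 of 13 collagen pairs and 1 of 57 zinc finger pairs, where 2.1% of all pairs were opposite. The lists were chosen with earlier results known, and no test was made of their shares.

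Between tissues the copy ratio was called in few of these pairs and in few of all pairs. The shares were not compared by a test. At stage 11, VMZ and animal cap libraries, which took no part in choosing the pairs, were compared in the same fits. The 2 groups also differed in the stage of cutting (10.5 against 8) and in explants per library (5 against 20). Tissue cannot be told apart from these. By limma the ratio was called in 2 of the 106 pairs, 1 toward the rising copy and 1 toward the falling copy, where 1.37% of all pairs were called (0.776% toward the copy of larger change, 0.597% away from it). With the replicate block, 4 were called toward the rising copy and 2 toward the falling copy (1.39% and 1.59% of all pairs, 2.99% in either direction). At an unadjusted p under 0.05 there were 16 of 106 (15.1%) against 9.81% of all pairs, and the median ratio difference was 0.07.

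*kit* was the pair called toward its rising copy, higher in the VMZ by 2.76 ± 0.54 (limma adjusted p = 0.02, and 0.00538 with the block). *kit.S* read 20.5 and 11.9 CPM in the VMZ and 5.54 and 10.5 CPM in the caps, while *kit.L* read 9.01 and 8.89 CPM in the VMZ and 30.8 and 28.8 CPM in the caps. The S share was thus 69.5% and 57.3% in the VMZ, 15.2% and 26.8% in the caps, and 17.6% and 18.6% in DMZ stage 11, so it was higher in both VMZ libraries than in any of the other 4. The call was lost without VMZ replicate 1 (0.131) or animal cap replicate 1 (0.186), and in a fit of only the groups compared (0.562).

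*st6gal1* was the pair called toward its falling copy in the VMZ (−2.28 ± 0.51, limma adjusted p = 0.0391, and 0.0157 with the block). Its L share was 13.9% and 20.8% in the VMZ against 56.1% and 45.1% in the caps, from 15 and 20 counts in the VMZ and 46 and 23 in the caps. The call was lost without any 1 of the 4 libraries (adjusted p from 0.0658 to 0.251), by edgeR's interaction test (0.0633) and in a fit of only the groups compared (0.692). *cnfn.1* (3.92 ± 0.96, adjusted p = 0.0617), *sphk2* (1.33 ± 0.37, 0.118) and *glipr2* (1.66 ± 0.67, 0.366) were called only with the block (0.0338, 0.0239 and 0.0217). *cnfn.1.S* had 13 and 6 counts in the VMZ and 0 in both caps, beside 673 to 1125 counts of *cnfn.1.L*.

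**Figure D5:**
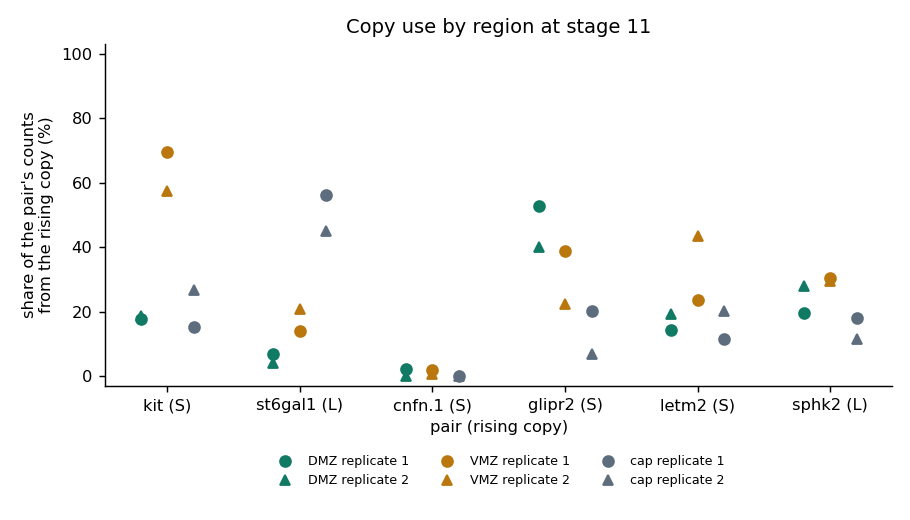
Share of the pair's counts from the rising copy (y axis, percent) in 6 pairs (x axis, rising copy in brackets) at stage 11, 1 point per library, with DMZ in green, VMZ in brown and animal cap in grey, circles for replicate 1 and triangles for replicate 2. The VMZ points of *kit*, at 69.5% and 57.3%, lie above those of DMZ and cap, and the cap points of *st6gal1*, at 56.1% and 45.1%, lie above the rest.

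By copy, VMZ and cap means were within 2-fold of each other in 96 of 106 rising copies (90.6%) and 97 of 106 falling copies (91.5%) on the log2(CPM + 1) scale, as were 96.9% of all gene models, which include many at low levels. At an unadjusted p under 0.05 in edgeR, 21 rising copies (19.8%) and 14 falling copies (13.2%) differed, against 10.1% of all gene models. In edgeR's test 2 rising copies were higher in the VMZ (0.721% of all gene models), 1 rising copy was lower (0.313%), and 1 falling copy was higher. These were *pnhd.L* (4.62 ± 0.68, adjusted p = 0.00172), *lhx3.L* (1.61 ± 0.36, 0.0426), *col4a5.L* (−2.28 ± 0.41, 0.00933) and *pnhd.S* (5.63 ± 0.91, 0.00437). Of these, *lhx3*, a LIM homeodomain gene, was chosen after its values were seen. Both copies of *pnhd* were thus higher in the VMZ, at 63.0 and 29.0 CPM for L and 62.3 and 29.1 CPM for S, than in the caps, at 1.37 and 2.30 CPM and 0.628 and 1.19 CPM. No pair had its copies called in opposite directions by edgeR or DESeq2 (0.0% of all pairs by edgeR), and 2 of the 106 had both copies at an unadjusted p under 0.05 in opposite directions, as had 15 of all 5023 pairs (0.299%). No falling copy was called lower by edgeR (7, or 6.6%, at an unadjusted p under 0.05, against 4.36% of all models). By DESeq2 3 were, where 1.51% of the 24055 models to which it gave an adjusted p were lower. With the block, 6 rising copies were higher and 3 lower, and 4 falling copies were higher and 3 lower (1.61% and 1.16% of all models). These counts also moved when 1 library was left out: 0 falling copies were higher and 1 rising copy was higher without either cap, and 0 rising copies were lower without animal cap replicate 2 or either VMZ library.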

How the data were processed

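The authors' deposited count table gives 1 whole-number count per gene model for 31694 models in 24 libraries. The L and S names of the models come from a further deposited table and were used as given. Trim Galore, kallisto and DESeq2 are named in the submitters' processing notes, without an order. Tool versions, strand setting and build were not given in the sources used here. By estimation, kallisto divides reads that match several transcripts, so the counts of near-identical copies depend on that division. The table with the names also gives the authors' deposited adjusted p-value and cluster number for 13913 models, which it marks as DE. Which comparison that p-value tests was not known.

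The 106 pairs, the classes and the gene lists were chosen with earlier results of these data known. CPM used the column sums. Tests used R 4.3.3, edgeR 4.0.16 (TMM, quasi-likelihood, robust) and limma 3.58.1 (trend, on log2 ratios of L to S counts with 0.5 added to each), fitted to all 24 libraries with 1 coefficient per group (12 residual degrees of freedom). The filter (minimum count 10, minimum total 15) left 31349 models and 5023 pairs, all 212 members included. With 2 libraries per group, the spread was estimated over all groups. The SE beside an edgeR change was derived from the test, as the absolute log2 change divided by the square root of its F statistic. Adjusted p-values are two-sided and Benjamini-Hochberg adjusted over the whole table, with calls under 0.05. The scripts were checked on simulated data whose libraries were drawn independently. That check does not bear on error rates where same-numbered libraries deviate together, as described below.

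Same-numbered libraries deviated together in all 66 pairs of groups (correlation 0.24 to 0.67, median 0.41), so the replicate numbers pair the samples. This rests on that check and not on the labels, and a fit with the number as a block is given where it changed a call or moved a count by over 1.5 times. Other alternatives were DESeq2 1.42.0, RLE scaling, filters, a prior of 2, an edgeR interaction test, fewer groups and leaving out each library. The pairs named were the 12 whose lesser change was largest with both copies reaching 5 CPM, the 12 of smallest p in the middle-stage ratio test, the 6 of smallest p in VMZ against cap, all opposite pairs on a gene list, and the 3 just inside and 3 just outside the rule. Some pairs that this rule takes are not reported here. The text says where a pair was picked otherwise. DMZ stage 11 was not tested against the VMZ or caps, because its libraries chose the pairs.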

Additional observations from a re-analysis of the deposited data

How the results depend on the processing

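The number of pairs depended on the rule: it was 224 with a pseudocount of 0.1 and 33 with 5, 34 at a threshold of 1, 255 at 0.5, and 65 when both copies had to reach 5 CPM. With TMM or RLE scaling 104 pairs were found, 98 and 100 of them among the 106. Leaving out 1 library gave 97 to 134, replicate 1 libraries alone gave 93 (61 shared) and replicate 2 libraries alone 162 (85 shared). For the middle stages, ratio calls toward the rising copy (68) numbered 42 in a fit of only the groups compared, 91 with the replicate block (26.3% of all pairs), 52 for stage 16 against 12, and 40 to 80 without 1 library. Rising copies called higher (38) numbered 64 with the block, 23 for stage 16 against 12, and 17 to 41 without 1 library. Falling copies called lower (49) numbered 74 with the block and 22 to 55 without 1 library. Pairs with both (17) numbered 8 with only the groups compared, 42 with the block, 7 for stage 16 against 12, and 1 to 19 without 1 library. In VMZ against cap, ratio calls toward the rising copy (1) were 0 with only the groups compared, 4 with the block and 0 to 2 without 1 library; those toward the falling copy (1) were 0 with the interaction test or only the groups compared, 2 with the block and 0 without any 1 library. Rising copies higher (2) were 6 with DESeq2 or the block, 0 with only the groups compared and 1 to 3 without 1 library; lower (1) were 0, 3 (block) and 0 to 1. Falling copies higher (1) were 4 with DESeq2 or the block, 2 with RLE or the stricter filter, 0 with only the groups compared and 0 to 1 without 1 library; lower (0) were 3 with DESeq2 or the block. The cause of these shifts was not tested. Where an alternative gained or lost the call of a named pair, the value kept its sign. Uncalled values could change sign, as the ratio difference of *alg10* in VMZ against cap did without VMZ replicate 2. For named pairs, 57 of 590 alternatives in the middle stages lost a call and 20 gained one, and in VMZ against cap 9 of 367 lost and 3 gained one. In a fit of only the groups compared, the middle-stage ratio calls of *kit* (adjusted p = 0.0764), *col4a5* (0.0557), *glipr2* (0.0553), *npdc1.1* (0.0726), *qrich1.2* (0.0642), *ralgps2* (0.0563) and *sphk2* (0.0646) were lost, and for stage 16 against 12 those of *glipr2* (0.0581), *npdc1.1* (0.116), *pnhd* (0.0747) and *sphk2* (0.122). The block changed no other call of a named ratio than those printed. Comparisons of protein sequence between copies and of promoter motifs were not run. Where a copy had few counts, as in *cnfn.1.S* or *sncb.S*, depth limits the ratio.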

Other observations

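The authors' deposited table marks 77 of the 106 rising copies (72.6%) and 96 of the 106 falling copies (90.6%) as DE. Both copies are so marked in 71 pairs, and 43.9% of all gene models are. The rising copies marked DE in the authors' deposited table fell into its clusters 4 (39) and 5 (38), and the falling copies so marked into clusters 2 (70), 1 (24) and 3 (2). Clusters 1 to 5 of the authors' deposited table hold 5.64%, 15.3%, 2.82%, 13.1% and 7.03% of all gene models. Over all models in the authors' deposited table, 74.8% of cluster 4 and 73.3% of cluster 5 rose by 0.7 or more by the measure that chose the pairs, while 73.1% of cluster 2, 28.1% of cluster 1 and 1.68% of cluster 3 fell as much. The table belongs to the same series as the libraries that chose the pairs, so these shares are not separate evidence of the changes.

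The copy ratio also differed between replicates of the same group. The difference in log2 ratio between replicate 1 and replicate 2 was averaged over the 12 groups with its sign. The absolute value of this mean had a median of 0.43 over the 106 pairs and 0.26 over all pairs. Differences of opposite sign cancel in it, so it understates the spread within groups. In *ankrd46* the difference ran from −3.07 to 2.88 with a mean of −0.435. The difference was on the same side in all 12 groups, with a mean of at least 1, in 6 of the 106 (5.66%) and in 198 of all pairs (3.94%). The log2 ratio of L to S was higher in replicate 1 in *ston2* (2.05), *anxa11* (1.74), *eif2b2* (1.73), *minpp1* (1.1) and *b4galt3-like.1* (1.01), and lower in *ube2j1* (−1.47), all chosen after their values were seen. In *anxa11*, the L share at stage 11 was 2.16% and 0.213% in the DMZ, 0.686% and 0.0734% in the VMZ and 4.45% and 0.595% in the caps (replicate 1, then 2), so replicate 1 was higher in each tissue.

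Most pairs sat in matching neighbourhoods. Of the 89 opposite pairs whose copies both matched a RefSeq symbol (assembly Xenopus_laevis_v10.1), 84 (94.4%) shared a named neighbour among the 5 genes on either side, against 97.5% of 4294 matched pairs, with a median of 4 shared names in both. The 5 without one were *anxa11*, *notum*, *plppr1*, *vps35* and *wwc1*.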
